A study of Sorghum bicolor with 12 samples.

Results

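The late phase of a sucrose treatment of sorghum seedlings, from 2 h to 6 h in the solution, was described from 8 of the 12 arrays of the series. The 4 arrays at 6 h were compared with the 4 arrays at 2 h, with BTX623 (a grain cultivar) and Keller (a sweet one) pooled, and cultivar and repeat number were kept as terms of the fit. Each change after 2 h was then set beside the change of the same probe before 2 h, to see which early changes reversed, held or grew and which loci moved only later.

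The study profiled whole 14-day-old seedlings of Sorghum bicolor on a custom one-colour Agilent array of 41977 probes. Seedlings of both cultivars were grown in a greenhouse under natural light, washed out of the soil, placed in 5% sucrose and collected at 0, 2 and 6 h. The 4 groups compared were BTX623 at 2 h, BTX623 at 6 h, Keller at 2 h and Keller at 6 h, each with 2 arrays numbered as biological repeats, and the study's methods describe its biological repeats as independent plantings without saying which planting each array came from. Both cultivars were untransformed lines, all 8 arrays came from sucrose-treated seedlings, and untreated seedlings at the 2 later times were not analysed here, so sucrose, handling and time of day cannot be told apart in any change below. Whole seedlings mix leaf, stem and root, and in such bulk RNA fewer cells of a type and less RNA per cell cannot be told apart. The number of seedlings behind each array is not given in the sources used here.

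Sucrose is the main form in which a grass moves its fixed carbon, and it also acts as a signal that changes the expression of genes for photosynthesis, starch and sugar turnover, cell walls and growth. Sorghum fixes carbon by the C4 pathway, in which carbonic anhydrase and phosphoenolpyruvate carboxylase capture carbon in the mesophyll and malic enzyme releases it in the bundle sheath. Histones package newly made DNA, and most of their mRNA accumulates in cells that are replicating DNA.

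Testing was limited to probes flagged well above background on both repeats in 1 or more of the 4 groups, which left 30947 probes (73.7% of those on the array). A probe was called when limma's adjusted p was under 0.05 and the fitted change was at least 2-fold. Signals below are the deposited processed signals scaled to a common 75th percentile, and all changes are differences on the log2 scale of those signals. The 75th percentile of the deposited signal was 323 to 400 on the 4 arrays of slide 1, which held Keller repeat 1 and BTX623 repeat 1 at 0 h, and 549 to 677 on the 4 arrays of each other slide, and 28323 to 34664 probes per array were well above background. Levels were not compared between probes.

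Between 2 h and 6 h, 823 probes rose (2.66% of those tested) and 1210 fell (3.91%). The median late change was 1.31 among those that rose and -1.35 among those that fell, against 0.02 over all probes tested. Of the probes that rose, 86 changed at least 4-fold, and of those that fell, 169 did. The direction was the same in all 4 pairs of cultivar and repeat for 805 of the 823 and for 1190 of the 1210, against 42.5% of all probes tested. These pairs are the arrays that gave the calls, so the agreement largely follows from the selection. All 4 signals at 6 h lay above all 4 at 2 h for 470 of the 823 and below them for 794 of the 1210, whereas 13.5% of all probes tested had groups that did not overlap and 6.57% were called. Of the 2033 called probes, 206 came from expressed sequence tags with no locus. The called loci numbered 709 that rose and 1042 that fell.

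**Figure D1:**
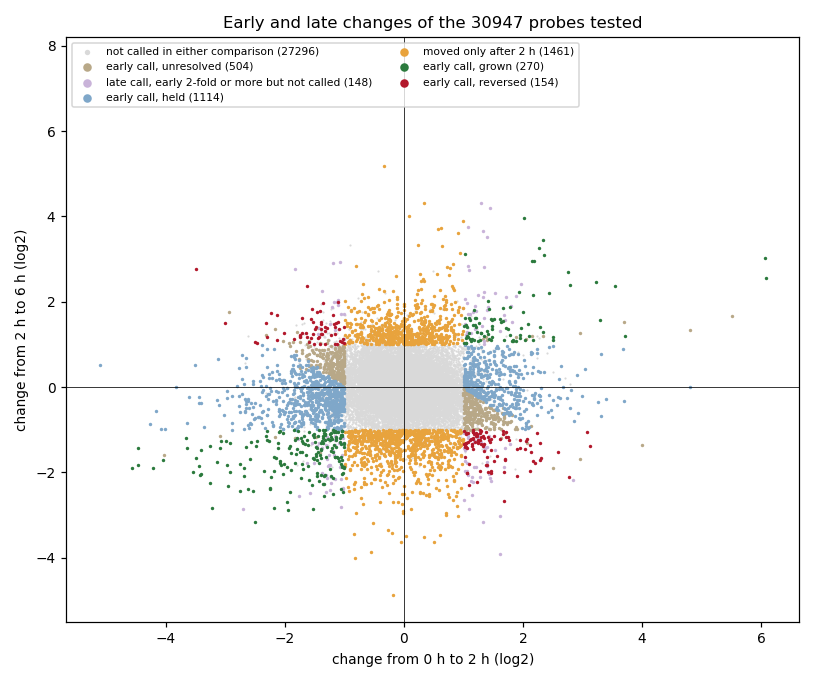
Change from 0 h to 2 h (horizontal axis, log2) against change from 2 h to 6 h (vertical axis, log2) for each probe tested, coloured by class where it was called in either interval and grey elsewhere. The 1461 probes that moved only after 2 h lie in the band under 2-fold on the horizontal axis, and the 1114 held probes lie in the band under 2-fold on the vertical axis; both axes share the 2 h arrays.

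Early changes more often held than reversed or grew. Between 0 h and 2 h, 862 probes rose (2.79%) and 1180 fell (3.81%), 2042 in all (6.6%). Without scaling of the arrays the split was 1419 higher and 687 lower. A called early change was counted as reversed if the probe was also called after 2 h in the opposite direction, as grown if it was called after 2 h in the same direction, and as held if the later change was under 2-fold and the level at 6 h was still called against 0 h. By these rules 1114 probes held (54.6%), 270 grew (13.2%) and 154 reversed (7.54%), and 504 (24.7%) fell under none of the 3. Both intervals use the 4 arrays at 2 h, so an error in those arrays enters the early and the late change with opposite signs.

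Reversal was counted more often among early rises and growth among early falls. Of the 862 probes up at 2 h, 95 reversed and 85 rose further, whereas of the 1180 down at 2 h, 59 reversed and 185 fell further. The difference between these shares was not tested. At 6 h, 89 of the 95 reversed rises and 54 of the 59 reversed falls were back within 2-fold of their 0 h level, and 2 of the 95 had gone past it by at least 2-fold. The grown falls had a median of -1.52 in each interval, and the held falls had medians of -1.47 before 2 h and -0.29 after it. The 504 probes in none of the 3 classes kept a median rise of 0.74 (260 probes) or a median fall of 0.74 (244 probes) at 6 h against 0 h, and 466 of them had moved by under 2-fold after 2 h.

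The 22 annotated histone loci of the array were the list with the largest share of falling members among those searched with at least 5 tested. Of the 22 tested, 19 fell after 2 h and none rose, against 3.91% of all probes falling, and the list's median late change was -1.12. Both linker histone H1 loci fell, as did 5 of 7 for H2A, 4 of 5 for H2B and 8 of 8 for H4. No locus annotated as H3 was in the gene lists used here. The falls lay between -1.74 and -1.02, and the highest limma adjusted p among them was 0.035.

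The histone probes were near the 2-fold threshold, so their count moved with the settings more than their level did. With quantile normalization 8 of the 22 were called, with a list median of -0.94, and without the BTX623 array of repeat 2 at 2 h 7 were called, with a median of -0.93. Without the Keller array of repeat 1 at 2 h 11 were called, with a median of -1.02. At an adjusted p under 0.05 with no minimum fold, 21 of the 22 were lower under the main and the quantile normalization, and 16 to 21 were when any array was left out. Histone probes are bright, and 811 other probes of similar brightness had a median late change of -0.10, with 63 of them (7.77%) called lower and 18 higher. No histone spot was saturated. Core histone genes are near-identical copies, so probes for different loci can report the same transcripts.

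The H1 locus Sb01g005010 (chromosome 1, 4084027 to 4085414, minus strand) showed a single pulse at 2 h. Values are given here and below in the order BTX623 repeat 1, BTX623 repeat 2, Keller repeat 1 and Keller repeat 2. Its signals were 2617, 2801, 2975 and 2653 at 0 h, 7768, 7096, 9242 and 7466 at 2 h, and 2624, 2030, 2961 and 1942 at 6 h. Every 2 h array stood above every array at the other times, and the 0 h and 6 h signals overlapped. The change was 1.51 ± 0.12 (SE) before 2 h and -1.74 ± 0.11 after it (limma, adjusted p = 0.00025). The second H1 locus, Sb02g004730, rose by 1.77 ± 0.09 and then changed by -1.25 ± 0.10.

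The core histones had early changes under 2-fold. The 17 called members for H2A, H2B and H4 moved only after 2 h, and the list median was 0.30 in the early interval and -0.79 at 6 h against 0 h. At 6 h against 0 h, 4 of the 22 were called lower and none higher, where 7.99% and 5.89% of all probes were. In 20 of the 22, all 6 h arrays lay below all 2 h arrays. By pair of cultivar and repeat the list median was -0.89 in BTX623 repeat 1, -1.49 in BTX623 repeat 2, -1.16 in Keller repeat 1 and -0.91 in Keller repeat 2. The first 3 of these pairs each lay on 1 slide. The member that went the other way was Sb09g022690, annotated as a probable H2A.4, with 2829, 7808, 8651 and 3157 at 2 h and 6767, 6229, 9710 and 7641 at 6 h, a difference of 0.59 ± 0.39 (limma, adjusted p = 0.33). Sb03g005730 (H2B.5) had a late change of -0.95 ± 0.20 and Sb09g001520 (a probable H2A.6) one of -0.83 ± 0.19, both short of 2-fold.

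**Figure D2:**
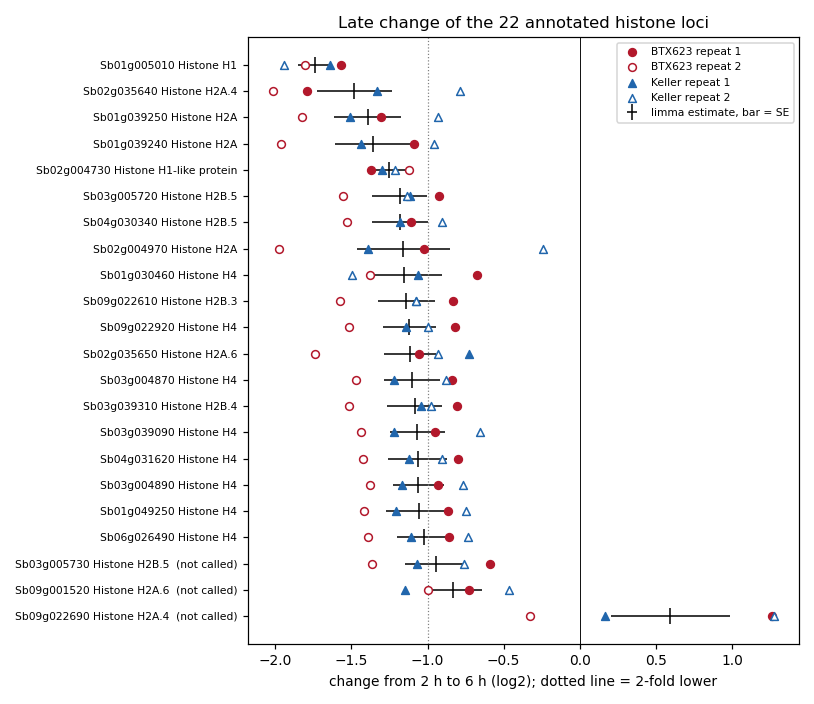
Late change (6 h minus 2 h, log2) of each of the 22 histone probes, with 1 point for each pair of cultivar and repeat, ordered by the size of the fall, the limma estimate with its SE, and a dotted line at a 2-fold fall. In all 4 pairs 21 of the 22 probes lie below 0; the exception is Sb09g022690.

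Other cell cycle and DNA replication loci were mostly not called. Of 21 tested, 1 rose and none fell (limma; 2.66% and 3.91% over all probes), with a median of 0.17. The rises numbered 0 with normexp and 2 without Keller repeat 1 at 2 h or BTX623 repeat 1 at 6 h. The riser was Sb08g019760, a D-type cyclin, whose proteins drive entry into the cell cycle. Its signals were 58.4, 60.4, 95 and 64.8 at 2 h and 143, 96.0, 170 and 213 at 6 h, a change of 1.13 ± 0.19. The early change of this locus was 0.59 in repeat 1 and -1.41 in repeat 2. Its late call was lost in 4 of the alternatives, the loss of Keller repeat 2 at 6 h among them. The ribosomal protein list had no call in either direction among 56 tested, with a median of -0.10.

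Among carbon fixation genes, the calls after 2 h were falls. Of 20 carbon fixation loci tested, 6 fell and none rose (3.91% and 2.66% over all probes), with a median late change of -0.39. The median was below 0 in each of the 4 pairs of cultivar and repeat (-0.59 to -0.26). A cytosolic fructose-1,6-bisphosphatase, which catalyses a step on the way from triose phosphate to sucrose, had the largest fall of the list. This locus, Sb03g040900 (chromosome 3, 68414777 to 68417510, plus strand), had signals of 4873, 8087, 4182 and 6147 at 0 h, 1836, 4052, 1988 and 4139 at 2 h, and 608, 1230, 496 and 907 at 6 h. Its groups at the 3 times did not overlap, and it changed by -1.01 ± 0.14 before 2 h and by -1.88 ± 0.12 after it (limma, adjusted p = 0.00028).

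The other 5 carbon fixation genes that fell moved only after 2 h. Among them were 3 neighbouring carbonic anhydrase loci on chromosome 3, whose enzyme hydrates CO2 ahead of the C4 cycle. Sb03g029180 had 23929, 23616, 20864 and 21282 at 2 h and 7050, 10546, 4567 and 7555 at 6 h, with no overlap between the times. Its late change was -1.65 ± 0.17, beside -1.38 ± 0.17 for Sb03g029170 and -1.34 ± 0.20 for Sb03g029190. The NADP-dependent malic enzymes Sb03g003220 and Sb03g003230, which release CO2 from malate, changed by -1.32 ± 0.11 and -1.21 ± 0.12. These neighbouring copies may share signal between probes. A phosphoenolpyruvate carboxylase 1 locus (Sb10g021330) had a late change of -0.87 ± 0.15, another (Sb04g008720) one of 0.19 ± 0.12, and the Rubisco small chain (Sb05g003480) one of -0.44 ± 0.11, none reaching 2-fold, and none of the 6 chlorophyll binding and photosystem loci tested was called (limma, median -0.16).

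Marker levels were read beside these changes, because whole seedlings can differ in their mixture of tissues. The 3 green leaf markers tested were well above background on all 8 arrays, none was called, and their summed signal was 575820 to 667040 at 2 h and 509510 to 635760 at 6 h. Of 7 mesophyll markers, which include the carbonic anhydrases, 5 were detected on all 8 arrays and 3 fell, and the sum went from 136480 to 160950 at 2 h down to 58054 to 95038 at 6 h. The 7 root markers were detected on all 8 arrays, none was called, and their median late change was -0.88. Their sum ranged from 4912 to 19285 at 2 h and from 3917 to 16119 at 6 h. Most of the root markers were neighbouring RCc3 loci on chromosome 4, whose probes may share signal. The pairs differed: Sb04g032640, an RCc3 locus, had late changes of -0.11, -1.83, -1.54 and -0.17. The part of tissue mixture in the late changes was not tested.

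Starch and sucrose genes gave 6 falls and 1 rise among 29 tested (3.91% and 2.66% over all probes), with a median of -0.08. The falls include the beta-amylase Sb02g035590, which passed the filter only through the 2 h arrays. With detection required on all 8 arrays, 5 fell. The rises numbered 3 without Keller repeat 1 at 6 h and 2 without it at 2 h. The starch synthase IIb-2 locus Sb04g028060, whose enzyme extends starch chains, had 338, 268, 338 and 351 at 2 h and 64.3, 92.7, 69.1 and 60.1 at 6 h. Its 2 h signals lay above all 6 h signals, a change of -2.19 ± 0.18 (limma, adjusted p = 0.00046). Sucrose-phosphate synthase (Sb03g043900), which catalyses the committed step of sucrose synthesis, fell by 1.20 ± 0.11, from 564, 798, 493 and 726 to 250, 387, 222 and 272. A beta-fructofuranosidase (Sb06g023760), an invertase that splits sucrose, changed by -1.40 ± 0.17. The riser in the full comparison was starch branching enzyme IIa (Sb06g015360), with 9041, 9595, 8652 and 6037 at 2 h and 25856, 15943, 19386 and 13094 at 6 h, a change of 1.13 ± 0.14.

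Amylases, which break starch down, made up the other 3 falls. The beta-amylase Sb02g035590 had 324, 150, 364 and 139 at 0 h and 46.3, 39.5, 63.2 and 51.3 at 2 h, and at 6 h its signals of 4.78 to 10.5 were not well above background on any of the 4 arrays. It was at least 5.19-fold lower at 6 h than at 2 h, given with no test because it passed the filter only through the 2 h arrays. A bound of this kind sets the mean of the detected group against the mean, per array, of the higher of the probe's own signal and the lowest signal well above background. Its neighbour Sb02g035600 changed by -1.12 ± 0.24, and the alpha-amylase Sb04g034140 by -1.29 ± 0.20.

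Loci annotated for galactose-containing sugars were among the rises. The alkaline alpha-galactosidase Sb02g006320 (chromosome 2, 7904523 to 7908055, plus strand), an enzyme that removes galactose from raffinose-type sugars, had 447, 77.6, 264 and 342 at 0 h and 754, 188, 484 and 341 at 2 h. At 6 h it had 2419, 4500, 1946 and 2744, above every array at either earlier time, a late change of 2.82 ± 0.43 (limma, adjusted p = 0.0044) after an early difference of 0.73 ± 0.54. A second alpha-galactosidase, Sb01g018410, rose by 1.76 ± 0.30. A raffinose synthase or seed imbibition protein, Sb01g004130, had 663, 235, 507 and 220 at 2 h and 1193, 1809, 1038 and 1080 at 6 h, with no overlap and a change of 1.78 ± 0.33. These 3 loci were grouped after their values were seen. Among the 351 carbohydrate metabolism loci that the study lists, 12 rose (3.42%) and 16 fell (4.56%), shares close to those of all probes.

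Cellulose synthesis genes fell where they were called. Of 20 cellulose synthesis loci tested, 5 fell and none rose (3.91% and 2.66% over all probes), with a median of -0.53. The median was below 0 in all 4 pairs. Without BTX623 repeat 2 at 6 h, or without Keller repeat 1 at 6 h, 3 were called. Cellulose synthase-8 (Sb02g007810) changed by -1.01 ± 0.29 and then by -1.34 ± 0.20, and its early change was -1.82 in repeat 1 and -0.20 in repeat 2. A locus annotated as OsCslF3 (Sb02g036030), a cellulose synthase-like protein of the rice family that makes mixed-linkage glucan, had 2199, 1117, 1089 and 1182 at 2 h and 579, 216, 431 and 263 at 6 h, with no overlap and a change of -1.95 ± 0.23. Its 0 h signals of 7890, 986, 5265 and 932 differed between the repeats, and its early change was -2.06 in repeat 1 and 0.26 in repeat 2.

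Expansins, which loosen cell walls, split in direction. Among 43 expansin and xyloglucan endotransglucosylase loci, 2 beta-expansins rose and 5 expansins fell (2.66% and 3.91% over all probes). Expansin-B15 (Sb04g032840) had 29.6, 22.6, 34.4 and 27.0 at 2 h and 149, 169, 83.4 and 65.2 at 6 h, and beta-expansin 3 (Sb01g050430) rose by 1.5 ± 0.14. Expansin-A31 (Sb01g021080), one of 4 falling members on neighbouring positions of chromosome 1, changed by -1.44 ± 0.16 from 73.9, 158, 172 and 354 to 30.4, 51.7, 52.0 and 160. The groups for this locus overlapped because the arrays differed more than the times did, while each of the 4 pairs fell. The count of falls in the list was 0 without the replicate block and with normexp background correction, 1 without Keller repeat 1 at 2 h, 2 without Keller repeat 1 at 6 h, and 3 without Keller repeat 2 at 2 h or BTX623 repeat 2 at 2 h or 6 h.

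**Figure D3:**
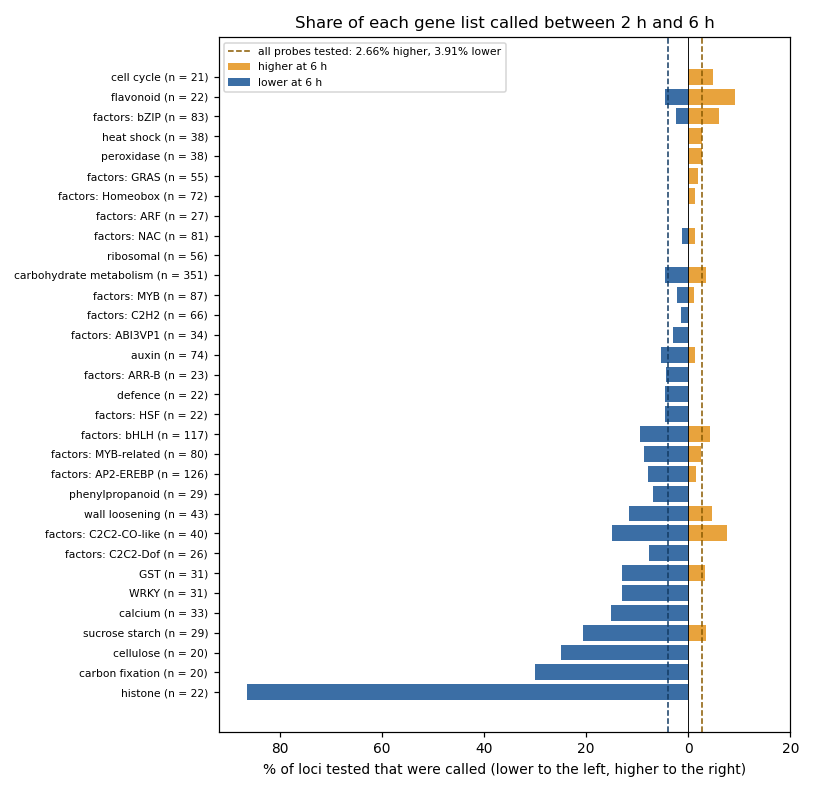
Percent of tested members called lower (left of 0) or higher (right of 0) at 6 h than at 2 h, for each list with at least 20 tested, with the shares over all probes tested (3.91% lower, 2.66% higher) marked. The histone bar reaches 19 of 22.

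The largest rise among annotated loci detected on all 8 arrays was that of Sb03g047330, annotated as SbPCL1 (chromosome 3, 74205803 to 74207284, minus strand). In Arabidopsis, PCL1 is a component of the circadian clock. Its signals were 27.5, 17.3, 25.1 and 21.9 at 0 h, 67.8, 19.1, 178 and 22 at 2 h, and 1679, 173, 3026 and 189 at 6 h. The 6 h value was well over the 2 h value within each pair of cultivar and repeat, although the groups touched because repeat 1 was higher than repeat 2 at both times in both cultivars. The late change was 3.75 ± 0.31 (limma, adjusted p = 0.00046). The early change was 2.06 in repeat 1 and 0.08 in repeat 2, so the start of the rise differed between the repeats.

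The 5 tested loci of the clock list, which did not include the called SbPCL1 probe, gave no late call (limma), with a median of -0.09. The PRR95-like response regulator Sb02g030870, from a family of clock proteins, had already risen by 2.74 ± 0.44 before 2 h. Its signals went from 1952, 771, 1909 and 563 at 2 h to 754, 1156, 636 and 1480 at 6 h. Repeat 1 was lower and repeat 2 higher at 6 h in both cultivars, and the pooled late change was -0.24 ± 0.47.

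Other rises among annotated loci covered auxin response, amino acid turnover and stress. Over all probes tested, 2.66% rose and 3.91% fell after 2 h. IAA18 (Sb09g026100), one of the Aux/IAA repressors of auxin response, had 138, 66.2, 354 and 166 at 2 h and 581, 676, 1098 and 794 at 6 h, with no overlap and a change of 2.33 ± 0.26 (limma, adjusted p = 0.0014). Its early change was 1.78 in repeat 1 and -0.13 in repeat 2. Of the 74 auxin loci tested IAA18 was the only one that rose, and 4 fell. Alanine-glyoxylate aminotransferase 2 (Sb01g035960) moves an amino group from alanine to glyoxylate. It had 36.6, 46.4, 26.7 and 56.9 at 2 h and 255, 248, 332 and 390 at 6 h, a change of 2.91 ± 0.22. Before 2 h it changed by 0.76, -1.85, -1.36 and -2.28 in the 4 pairs. Heat shock protein 101 (Sb09g025900), a chaperone that takes protein aggregates apart, rose by 1.71 ± 0.33 and was the only call among 38 heat shock loci. In repeat 1 its 6 h signals (199 and 225) were still below those at 0 h (515 and 466). The rises in that list numbered 4 without Keller repeat 1 at 2 h, and 2 without Keller repeat 2 at 2 h or either Keller array at 6 h. The thionin-like loci Sb02g007410 and Sb02g007390, from a family of small antimicrobial peptides, rose by 1.87 ± 0.29 and 1.86 ± 0.34. Sb02g007410 had also risen before 2 h, by 2.48 in repeat 1 and 1.08 in repeat 2. The early changes of Sb02g007390 were 1.35 and 0.65. The probes of these neighbouring loci may share signal.

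A few loci passed from undetected to detected. The probe of Sb03g034280, an oxidoreductase precursor, was well above background on none of the 4 arrays at 2 h and on all 4 at 6 h. Its signals were 1.68, 3.64, 2.48 and 8.88 at 2 h and 46.5, 393, 44.3 and 290 at 6 h, which is at least 12.0-fold higher. Probes of this kind passed the filter only through the time at which they were detected, so they are given with no test. Those that were called remain in the counts of late calls above. Among the probes called after 2 h, 17 went this way, 14 of them for loci and the rest for tags, with bounds from 1.23-fold up. Another 8 called probes went the other way, 6 of them for loci. Uncalled probes of this kind were not counted. Sb04g001770, a linalool synthase, whose enzyme makes a volatile monoterpene, was at least 2.34-fold lower at 6 h.

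The largest fall among annotated loci detected on all 8 arrays was that of Sb09g025540, an O-methyltransferase of the ZRP4 kind (chromosome 9, 55018768 to 55020383, minus strand). Its signals were 3832, 3335, 1986 and 2867 at 2 h and 106.6, 221, 172 and 266 at 6 h. The times did not overlap, and the change was -4.01 ± 0.27 (limma, adjusted p = 0.00028). A second ZRP4-like locus close by, Sb09g025560, changed by -2.69 ± 0.13. The early change of the first was -1.56 in repeat 1 and 0.71 in repeat 2, with the spot of Keller repeat 2 at 0 h left out as an outlier.

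Next came 1-deoxy-D-xylulose 5-phosphate synthase, the first enzyme of the plastid route to isoprenoids. The locus Sb02g005410 (chromosome 2, 6394023 to 6395769, plus strand) had 652, 694, 1089 and 684 at 2 h and 45.7, 75, 62.3 and 68.8 at 6 h, a change of -3.62 ± 0.21 (limma, adjusted p = 0.00023). The 4 arrays lay within 2-fold of each other at each of these times. At 0 h they did not, with 4949 and 2996 in repeat 1 of the cultivars and 159 and 162 in repeat 2, so its pooled early change of -0.05 ± 0.87 was the mean of -2.19 in repeat 1 and 2.10 in repeat 2. A second such locus, Sb02g005380, changed by -2.74 ± 0.15 after 2 h, by -2.74 before 2 h in repeat 1 and by 1.36 in repeat 2.

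Early changes of opposite sign in the 2 repeats were also found at other loci named here. A flavonol 3-O-glucosyltransferase (Sb05g002840) had 229, 108, 201 and 154 at 2 h and 23.2, 19.9, 30.1 and 15.7 at 6 h, a change of -2.94 ± 0.19, with early changes of -1.39 and 1.36 in the 2 repeats. The indole-3-glycerol phosphate lyase Sb01g005140, which releases indole, changed by -2.70 ± 0.19, with early changes of -1.63 and 0.83. A fatty acid desaturase (Sb01g038500) had 29904, 34231, 27269 and 29342 at 2 h and 5473, 6682, 3687 and 5883 at 6 h, a change of -2.50 ± 0.13, with early changes of -0.77 and 0.69. In each of these 3 loci no 6 h array reached the lowest 2 h array. For Sb09g025560 the early changes were -1.30 and 0.94, for the linalool synthase locus Sb04g001770 -1.53 and 1.52, and for the invertase locus Sb06g023760 -1.10 and 0.91.

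AMP deaminase, which converts AMP to IMP, gave a late fall with little early movement. Its locus, Sb09g016850 (chromosome 9, 42427487 to 42453272, plus strand), had 2919, 1496, 1868 and 1364 at 0 h and 2992, 2046, 2198 and 2639 at 2 h. At 6 h it had 466, 369, 399 and 450, under every earlier array. It changed by 0.42 ± 0.20 before 2 h and by -2.54 ± 0.15 after it (limma, adjusted p = 0.00024).

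The loci that moved only after 2 h were therefore split by the behaviour of the repeats, a division chosen after the values were seen. By the pooled early change, 1461 probes (71.9% of the late calls) were called after 2 h, were not called before it and had an early change under 2-fold, 621 of them higher and 840 lower (517 and 1136 without scaling). For 638 of the 1461 (43.7%), the early change was under 2-fold in all 4 pairs of cultivar and repeat, as it was for 64.4% of all probes tested. For 537 (36.8%), the mean early change of at least 1 repeat reached 2-fold, against 20.3% of all probes. In 48 (3.29%, against 0.481% of all probes), both repeats moved at least 2-fold before 2 h but in opposite directions, and 38 of these 48 fell after 2 h. The repeats stood furthest apart before the treatment, with 11% of probes differing at least 2-fold between them in the same direction in both cultivars at 0 h, 4.61% at 2 h and 7.3% at 6 h. The late changes do not use the 0 h arrays.

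Reversed rises named here were 2 transcription factors and 2 enzymes, beside the H1 histones. The GDSL-like lipase Sb01g015890, from a family of lipid-cleaving enzymes, had 297, 325, 434 and 340 at 2 h and 77.3, 73.8, 93.6 and 80.3 at 6 h, a change of -2.09 ± 0.13 (limma, adjusted p = 0.00023). Its 0 h signals were 237, 26.9, 227 and 51.1, so the preceding rise was 0.63 in repeat 1 and 3.17 in repeat 2. The BHLH9-like transcription factor Sb02g002760 rose by 1.69 ± 0.36 and fell by 1.68 ± 0.26, and the AP2-domain protein Sb01g044410 rose by 2.24 ± 0.33 and fell by 1.08 ± 0.28. The late call of the AP2 locus was lost in 10 of the alternatives, with any of 5 arrays left out among them. The glutathione S-transferase GST7 (Sb03g045810), from a family that couples toxic compounds to glutathione, rose by 3.07 ± 0.94 and fell by 1.06 ± 0.24, and the latter call was lost in 9 of the alternatives. Its early change was 0.62 in repeat 1 and 5.53 in repeat 2, its 6 h signals in repeat 1 (75 and 59.5) lay below those at 0 h (118 and 86.9), and its level at 6 h was not called against 0 h (limma, adjusted p = 0.13).

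Reversed falls included another bHLH gene and a peroxidase. Sb01g035970, annotated as bHLH033 (chromosome 1, 59646748 to 59648500, plus strand), had 145, 114, 176 and 114 at 0 h, 61.7, 34.2, 51.9 and 33.7 at 2 h, and 326, 171, 218 and 210 at 6 h. The 2 h arrays were below all others, and all but 1 of the 6 h arrays were above every 0 h array, with changes of -1.62 ± 0.16 and then 2.36 ± 0.17 (limma, adjusted p = 0.00032). The class III peroxidase Sb02g029340, from a family that acts in cell walls, changed by -1.71 ± 0.33 and then by 1.61 ± 0.20. RF2a (Sb03g034950), a bZIP activator in rice, changed by -2.30 ± 0.22 and then by 1.16 ± 0.25, with the late call lost in 8 of the alternatives, any of 5 arrays left out among them.

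**Figure D4:**
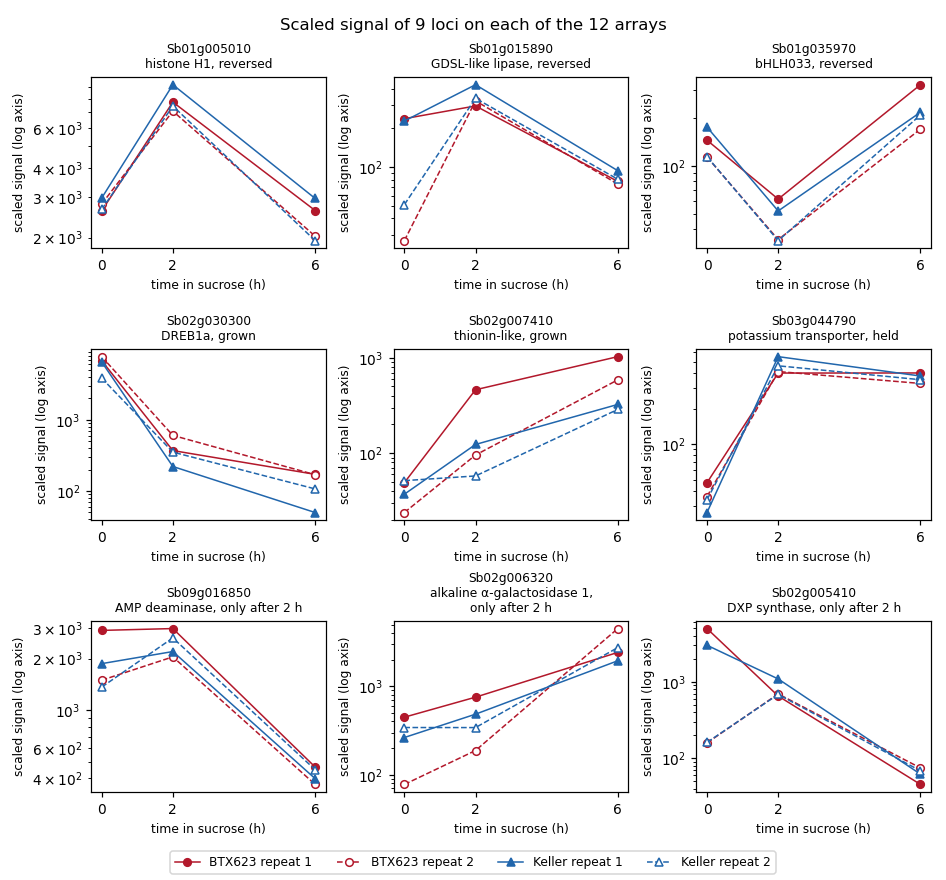
Scaled signal (log axis) at 0, 2 and 6 h of 9 loci, with 1 line for each cultivar and repeat. The alkaline alpha-galactosidase rises after 2 h, AMP deaminase falls after 2 h, DREB1a falls in both intervals, and the H1 histone is high at 2 h alone.

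Grown changes were mostly falls, 185 of 270. DREB1a (Sb02g030300, chromosome 2, 65373719 to 65374417, minus strand), of the family that switches on cold and dehydration genes, had 6774, 7726, 6502 and 3857 at 0 h, 370, 605, 221 and 352 at 2 h, and 172, 170, 49.9 and 107.2 at 6 h. The groups at the 3 times did not overlap, and the changes were -4.05 ± 0.27 and then -1.70 ± 0.20 (limma, adjusted p = 0.0017). The adjacent DREB-like locus Sb02g030310 changed by -4.47 ± 0.22 and then by -1.43 ± 0.21. The third locus of that cluster, SbCBF6 (Sb02g030320), changed by -2.90 ± 0.13 and then by -1.0 ± 0.10, just short of 2-fold, and was counted as held. Probes within this cluster may share signal.

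Other grown falls involved jasmonate, ethylene and calcium genes. Over all probes tested, 3.91% fell and 2.66% rose after 2 h. The ZIM-motif locus Sb01g023330, of the family that represses jasmonate signalling, had 1155, 2853, 794 and 2243 at 2 h and 352, 1037, 313 and 527 at 6 h, overlapping because the repeats differed, and each pair fell, with changes of -3.49 ± 0.32 and then -1.65 ± 0.15. It was the only late call among 8 jasmonate loci, whose median was -0.83. The falls in that list numbered 0 without the replicate block, 3 with normexp or without BTX623 repeat 2 at 2 h or 6 h, and 2 without Keller repeat 2 at 2 h or 6 h. The ACC oxidases Sb05g005710 and Sb05g005720, which make ethylene, fell in both intervals, after 2 h by 1.65 ± 0.26 and 1.32 ± 0.23, and were the only late calls among 7 ethylene loci. The calcium-binding protein Sb10g009160 had 15519, 15131, 12967 and 7826 at 0 h, 1783, 4130, 1312 and 2439 at 2 h, and 215, 610, 76.6 and 356 at 6 h, falling by 2.5 ± 0.39 and then by 3.17 ± 0.22 with no overlap between times. Of 33 loci in the calcium list, 5 fell and none rose, 1 of the 5 grown and 4 moving only after 2 h. The latter included the calmodulin-like locus Sb01g036380 with a late change of -1.52 ± 0.12, whose early change was -1.34 in repeat 1 and -0.18 in repeat 2, and its neighbour Sb01g036390 with -1.54 ± 0.16. The WRKY64-like factor Sb03g038200 changed by -1.95 ± 0.32 and then by -2.89 ± 0.33, and 3 other WRKY loci of 31 fell (2 falls in all without BTX623 repeat 1 at 6 h).

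Grown rises had fewer annotated members. They included the thionin-like locus Sb02g007410 given above, whose late call was lost in 1 of the alternatives. The tonoplast aquaporin TIP4-2 (Sb09g007940), a water channel of the vacuole membrane, had 784, 38.1, 784 and 79.5 at 0 h, 2507, 513, 2839 and 531 at 2 h, and 2514, 1533, 4870 and 2208 at 6 h. In BTX623 repeat 1 the 2 h and 6 h signals were alike, and its late change of 1.1 ± 0.30 (limma, adjusted p = 0.038) lost its call in 12 of the alternatives, with any of 6 arrays left out among them.

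Held changes included some of the largest early rises. The potassium transporter Sb03g044790, of a family that takes up potassium, had 47.0, 35.9, 26.3 and 33.8 at 0 h, 400, 412, 551 and 461 at 2 h, and 401, 327, 378 and 351 at 6 h. The 2 h and 6 h signals overlapped, and after a rise of 3.69 ± 0.18 the late change was -0.32 ± 0.12 (limma, adjusted p = 0.10). Its neighbour Sb03g044780 rose by 3.39 ± 0.17, with a late change of -0.28 ± 0.13. GA 2-oxidase 5 (Sb03g002150), which inactivates gibberellins, rose by 2.99 ± 0.17, with a late change of -0.20 ± 0.17. An IAA amidohydrolase (Sb02g007730), which frees auxin from conjugates, rose by 2.51 ± 0.54 with a late change of 0.95 ± 0.13, under the 2-fold line although its adjusted p was 0.0026.

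Held falls included the patatin-like phospholipase Sb01g013740 (-3.61 ± 0.26, then -0.24 ± 0.16), which belongs to a family of lipid acyl hydrolases, and WRKY21 (Sb03g038210; -2.96 ± 0.14, then -0.09 ± 0.16). Of 6 trehalose loci, whose products report sugar status in plants, 3 fell before 2 h (3.81% over all probes) and none was called after it (limma). Their late changes lay between -0.82 and 0.96. Another patatin-like locus, Sb05g024390, was called lower after 2 h and not before it, from 60105, 42132, 58819 and 49670 to 5344, 8592, 5194 and 7538, with early changes of -0.40 in repeat 1 and 1.80 in repeat 2.

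Transcription factor families, as the study lists them, were counted beside all probes tested, of which 2.66% rose and 3.91% fell. Differences from these shares were not tested. Of 126 AP2-EREBP loci tested 2 rose (1.59%) and 10 fell (7.94%), and of 117 bHLH loci 5 rose (4.27%) and 11 fell (9.4%). In the bZIP family 5 of 83 rose (6.02%) and 2 fell (2.41%). In the MYB-related family 2 of 80 rose (2.5%) and 7 fell (8.75%), and in the C2C2-CO-like family 3 of 40 rose (7.5%) and 6 fell (15%). Among the 27 ARF loci, which mediate auxin response, none was called (limma), and in the NAC family 1 of 81 rose and 1 fell (1.23% each). Without Keller repeat 1 at 2 h or at 6 h, 5 AP2-EREBP loci rose, and without it at 2 h, or without BTX623 repeat 1 at 2 h, 3 bHLH loci rose. Without either BTX623 array at 6 h, 1 C2C2-CO-like locus rose. Without the replicate block the C2C2-CO-like family had 0 rises and 1 fall and the bHLH family 2 and 5, and with normexp the bZIP family had 0 rises and 1 fall, the bHLH family 1 and 5, and the AP2-EREBP family 3 and 5. The medians of these families lay between -0.26 and 0.16. The CCT-motif locus Sb01g029080, of the C2C2-CO-like family, had 161, 345, 177 and 332 at 2 h and 24.4, 86.5, 28.0 and 102 at 6 h, with no overlap and a late change of -2.27 ± 0.19.

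Some of the largest late changes belonged to loci without a function in the gene lists used here. Sb10g003700 had 51.6, 51.7, 33.8 and 76.8 at 2 h and 591, 4914, 219 and 1702 at 6 h, a rise of 4.31 ± 0.54. Sb08g015290 had 139, 27.9, 136 and 18.7 at 2 h and 3296, 268, 2702 and 248 at 6 h, a rise of 3.97 ± 0.21. The early change of Sb08g015290 was 3.19 in repeat 1 and 0.85 in repeat 2, and that of Sb10g003700 was 0.35 and 0.32. Sb09g019990 changed by -3.62 ± 0.26, with early changes of -0.80 and 1.79 in the repeats, and Sb02g036650 by -3.50 ± 0.23, with early changes of -2.0 and 2.67. For each of the 4 loci all 6 h arrays lay on one side of all 2 h arrays.

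The late change was not found to differ between the cultivars for any single probe. The limma interaction of time and cultivar gave 0 calls, the smallest adjusted p was 0.67, and 978 probes (3.16%) had an unadjusted p under 0.05. With 2 arrays per group the median SE of that difference was 0.33, and 1399 probes had an estimated difference of at least 2-fold that did not pass. Normexp background correction gave 1 call, values without scaling gave 29, and leaving out 1 array gave 0 to 3, the last without BTX623 repeat 2 at 2 h. All 2033 probes called in the pooled comparison had the same direction in both cultivars, and 607 of the 823 that rose and 900 of the 1210 that fell did so at least 2-fold in each. Calling on the pooled change largely fixes that agreement, so it cannot show that the cultivars respond alike. Of the called probes, 103 (5.07%) had an unadjusted interaction p under 0.05 (limma), against the 3.16% of all probes. Among annotated loci detected on every array at 2 h and 6 h, the smallest unadjusted p belonged to Sb04g018451, a predicted protein. Its signals in BTX623 were 244 and 351 at 2 h and 85.3 and 137 at 6 h. In Keller they were 31.6 and 41.3 at 2 h and 56.4 and 68.3 at 6 h. The difference between its late changes was 2.22 ± 0.28.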

How the data were processed

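Hybridisation intensity was measured on 12 one-colour arrays, 8 of them in the late comparison. The deposited intensity values were the scanner software's processed signals, which per the file headers had been background-corrected by the authors' feature extraction and not normalised between arrays. Flags in other columns of the deposited files (well above background, saturated, outlier) were used as given, and 1216 further spots were left out. Probes were named from the study's gene lists, which gave a function or similarity for 9314 of 34398 loci, with coordinates whose genome build is not given in the sources used here.

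Signals were taken as log2 and each array's 75th percentile was subtracted. Fits used limma 3.58.1 in R 4.3.3 with a variance trend and Benjamini-Hochberg adjustment over all probes tested. The late fit held the 8 arrays at 2 h and 6 h, and the early change came from a fit over 12 arrays on the same probes, both with cultivar and repeat number as terms. The numbers pair the samples: deviations of same-numbered arrays correlated at 0.39 to 0.63 in all 6 pairs of the 4 groups, although the repeat number goes partly with the slide. The p-values measure the spread left between arrays once time, cultivar and the shared difference between repeat numbers were fitted. Each group had 2 repeats, whose separate plantings were not tied to single arrays. Only the late fit and its calls were tested on simulated data.

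Named genes were annotated loci with the largest changes in each direction overall and in each class, detected on all 8 arrays and moving alike in all 4 pairs, up to 3 called members per list, and loci detected at 1 time only. Further members of the lists, and loci without a function, were named to show their values. The comparison, the gene lists and the markers were chosen with earlier results of these data known, so the lists are described by counts and medians with no test of their own. Alternatives covered the block, normalisation, filter, thresholds, slide and the loss of each array.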

Additional observations from a re-analysis of the deposited data

How the results depend on the processing

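The number of late calls depended on the block, the background correction and the threshold, and less on single arrays. Without the replicate block, 338 probes rose and 707 fell after 2 h, 1238 early changes were called, of which 64 reversed, 93 grew and 722 held, and 274 probes higher and 511 lower moved only after 2 h. Of the 155 named late calls, 101 were still called without the replicate block. A block for each pair of cultivar and repeat gave 827 and 1225. Normexp correction gave 393 rises and 743 falls, 1195 early changes (84 reversed, 141 grown, 712 held, 258 in no class) and 319 and 539 that moved only late. At an adjusted p under 0.01 there were 506 rises, 1285 early changes (78 reversed, 152 grown, 727 held, 328 in no class) and 369 late-only rises. With no minimum fold there were 3007 rises, 3218 falls, 5292 early changes (823, 904, 2765 and 800 in the 4 classes), 2325 late-only rises and 1998 late-only falls. At 2-fold with no test, 284 reversed and 1399 cultivar differences were counted. Without scaling, 235 reversed, 29 cultivar differences were called, the late calls were 740 higher and 1618 lower, and the late-only calls 517 and 1136; the median late change of all probes was then -0.08.

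Leaving out 1 array gave 734 to 841 rises, 1114 to 1213 falls, 1725 to 2176 early changes, 111 to 196 reversed, 200 to 288 grown, 906 to 1181 held, 409 to 562 in no class, 559 to 635 and 780 to 855 late-only, 0 to 3 cultivar differences and 129 to 155 named calls. An arm left with 1 array was assumed to vary like the others. The 155 named late calls kept their direction in every alternative that tested them, which was not checked for named loci without a late call. Quantile normalisation, slide as a block, pairs within a slide, all 12 arrays and other filters kept the total counts within 1.5 times. Signals near background limit the size of late changes at undetected probes, and 2 arrays per group limit the cultivar comparison.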
